A study of Mus musculus with 9 samples.

Results

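Bik, Bcl2, Birc3 and Fas are 4 regulators of apoptosis among the 720 genes that the study's 2 deposited tables list, and they were taken from those tables by gene name. Bik is listed for the compound MGH-CP1, and Bcl2, Birc3 and Fas for dinaciclib; no member is in both tables. The cells were EHE17, 1 mouse endothelial tumour line whose genotype is given as TC+/+ Cdkn2a -/- in every group, controls included. RNA was sequenced from 3 biological replicates each of cells given DMSO vehicle, 10 µM MGH-CP1 for 16 h, or 300 nM dinaciclib for 16 h. MGH-CP1 is an inhibitor of TEAD palmitoylation, and dinaciclib inhibits cyclin-dependent kinases, among them the kinase that releases paused RNA polymerase II. The labels name the replicates as biological without saying what was separate, so p-values measure the spread between these samples. All 4 genes were lower in treated cells than in vehicle. Only genes picked for a change are listed, and 50.7% of those tested with MGH-CP1 and 75.0% with dinaciclib were called lower.

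Cells can enter apoptosis by a mitochondrial route and by a death receptor route. In the mitochondrial route, BCL2 and its relatives hold the pore-forming proteins BAX and BAK in check, and BH3-only proteins such as BIK oppose these guardians. In the receptor route, FAS at the cell surface recruits an adaptor and starts the caspase cascade when it binds its ligand. BIRC3, also called cIAP-2, is a ubiquitin ligase of the inhibitor of apoptosis family that acts on complexes at TNF receptors and restrains the non-canonical NF-kappaB pathway. Bcl2 and Birc3 therefore encode proteins known for protecting cells, and Bik and Fas encode proteins known for promoting death.

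The promoters of the 3 genes lower with dinaciclib are shown because these genes are listed in the same comparison, and they differ in base composition. Each window runs 5′ to 3′ on the gene's strand and ends just before the first transcribed base of the deposited gene model or of RefSeq, whichever lies further upstream. Sequences are from RefSeq on GRCm38.p6: chr1:106714291-106714540 (minus strand) for Bcl2, chr9:7873187-7873420 (minus strand) for Birc3, and chr19:34290409-34290658 (plus strand) for Fas. Capitals mark matches on either strand to the GC box (GGGCGG), the AP-1 motif (TGANTCA), the core of the cyclic AMP response element (TGACGT), the TATA box (TATAAA), the CCAAT box, the NF-kappaB motif or the p53 half-site. The letters of the NF-kappaB and p53 patterns are not given here, and other forms of these motifs could be present unmarked.

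Bcl2: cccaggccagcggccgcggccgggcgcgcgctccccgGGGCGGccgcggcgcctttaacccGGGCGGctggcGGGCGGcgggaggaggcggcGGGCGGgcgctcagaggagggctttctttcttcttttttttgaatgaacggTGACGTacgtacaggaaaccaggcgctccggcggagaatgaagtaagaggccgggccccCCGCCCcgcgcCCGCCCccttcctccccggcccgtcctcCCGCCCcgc
Birc3: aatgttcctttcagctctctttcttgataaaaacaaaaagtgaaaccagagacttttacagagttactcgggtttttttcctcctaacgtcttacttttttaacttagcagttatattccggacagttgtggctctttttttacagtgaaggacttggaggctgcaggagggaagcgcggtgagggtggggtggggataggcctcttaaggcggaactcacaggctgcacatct
Fas: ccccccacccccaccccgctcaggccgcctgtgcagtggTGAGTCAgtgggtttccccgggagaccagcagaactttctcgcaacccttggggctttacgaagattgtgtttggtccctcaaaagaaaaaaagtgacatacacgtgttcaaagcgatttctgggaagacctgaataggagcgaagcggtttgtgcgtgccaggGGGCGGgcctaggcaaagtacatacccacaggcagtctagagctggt

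The Bcl2 window was 74.8% G and C, that of Fas 56.4% and that of Birc3 44.9%, beside a median of 52.0% over 27025 mouse promoters read over the 250 bases upstream of the start. The Bcl2 window held 7 GC boxes and 1 match to TGACGT, and the Fas window 1 GC box and 1 AP-1 match. The 234 bases upstream of Birc3 held none of the 7 motifs, and no match overlapped another. Of all promoters, 32.9% held a GC box, 6.87% the AP-1 motif, 6.56% TGACGT, 13.0% TATAAA, 34.5% CCAAT, 7.01% the NF-kappaB motif and 7.18% the p53 half-site. No motif was found in all 3 windows. A match describes the letters only.

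The vehicle libraries held 31852117 to 40020833 counts, the MGH-CP1 libraries 19934012 to 24310817 and the dinaciclib libraries 2541162 to 3316779. Vehicle libraries thus held 12.2 times as many counts as dinaciclib libraries on average. These totals were recovered from the deposited FPKM, and depth here means such counts, not reads sequenced. The tables hold only genes that the authors had picked for a change: 471 for MGH-CP1 and, for dinaciclib, 251 that carry a tumour annotation. A gene outside a table has no level here. Of 15 endothelial markers 11 were in neither table, and of the others Kdr, Fli1 and Gata2 had mean vehicle levels of 90.3, 32.0 and 9.11 FPKM (fragments per kilobase of gene, scaled to library size), and Vwf 0.149 FPKM. In bulk cultures such as these, fewer cells expressing a gene and less RNA per cell cannot be told apart. Normalised counts and FPKM are both scaled to each library, so higher and lower are relative to the other transcripts. The amount of RNA per cell was not measured.

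In vehicle cells the 4 transcripts stood in a clear order. Bik had 9.24, 11.0 and 9.27 FPKM in the 3 vehicle libraries, Bcl2 4.80, 4.21 and 3.99, Birc3 1.75, 1.44 and 1.51, and Fas 0.453, 0.406 and 0.541. No neighbours in this order overlapped across the 3 libraries, and Bik exceeded Bcl2 by 2.27-fold, Bcl2 exceeded Birc3 by 2.76-fold and Birc3 exceeded Fas by 3.36-fold in mean FPKM. These are levels per length from the same 3 libraries, and FPKM depends on the gene length that the authors used. Bik was the most abundant of the 4 and Fas, the other gene known for promoting death, the scarcest. Bik ranked 46 of the 471 genes in its table by vehicle FPKM. Bcl2 ranked 177, Birc3 220 and Fas 243 of 251 in theirs, where the median was 8.58 FPKM.

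**Figure D1:**
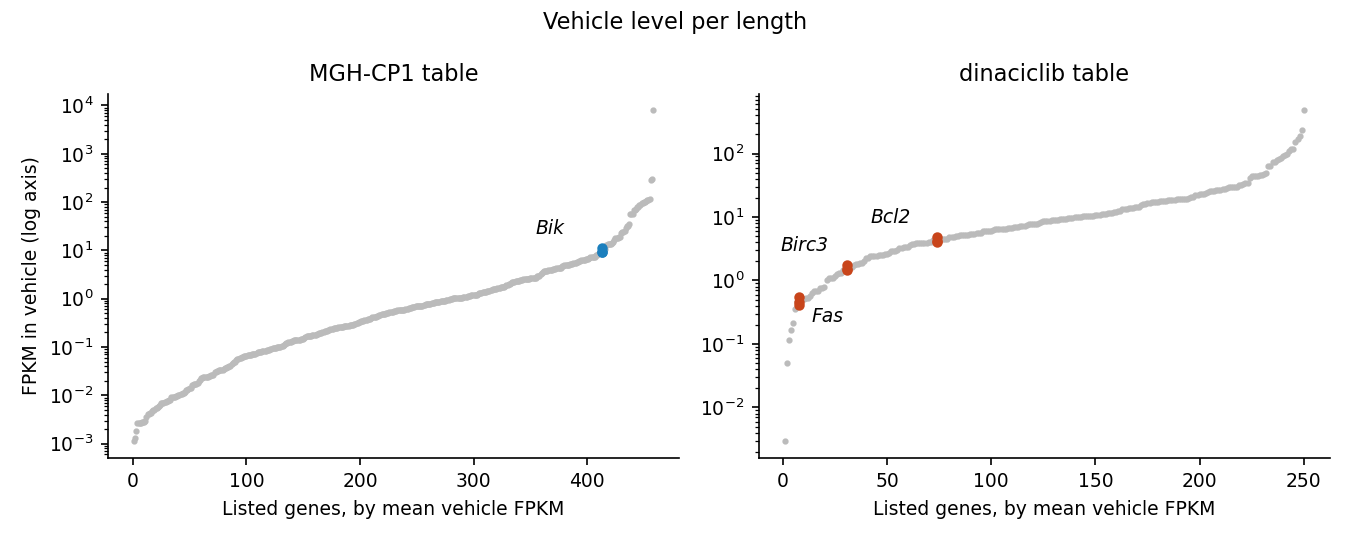
Vehicle level per length of each listed gene (grey, mean of 3 libraries, log axis) in order of level, with the 3 vehicle libraries of each member in colour; 13 MGH-CP1 genes and 1 dinaciclib gene at 0 FPKM are not drawn. Bik lies among the upper genes of its table at 9.24 to 11.0 FPKM, while Bcl2, Birc3 and Fas lie in the lower part of theirs.

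The MGH-CP1 comparison asks which transcripts change when TEAD palmitoylation is blocked, and Bik is its only listed apoptosis regulator of the lists used here. Bik (ENSMUSG00000016758) lies on chromosome 15 from 83526862 to 83544634 on the plus strand, in coordinates taken as GRCm38, with up to 5 exons in a transcript. In normalised counts (counts divided by the authors' size factor of each library), Bik stood at 413, 491 and 412 in vehicle and at 147, 182 and 233 with MGH-CP1. The highest treated library lay well below the lowest vehicle library, and treated replicate 3 was the highest of the treated group. The mean fell from 439 ± 45.4 to 187 ± 43.1 (SD, n = 3 each), which left 42.7% of the vehicle level. These means rest on 1656 counts in vehicle and 452 with MGH-CP1. The treated libraries spanned 1.58-fold and the vehicle libraries 1.19-fold.

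Bik had a log2 change of −1.23 (SE 0.180, 95% interval −1.62 to −0.83), and the edgeR quasi-likelihood p after Benjamini-Hochberg adjustment was 1.57e-04. Of the 355 tested genes 50.7% were called lower, 49.3% higher and 100% in either direction, since the authors had picked them on the same libraries. All treated libraries lay below all vehicle libraries in 50.1%, and the groups did not overlap in 98.6%. The call is therefore no independent evidence for the fall. The authors' deposited table gives Bik a log2 fold change of −1.23 and an adjusted p of 1.49e-13. Among the 180 lower genes Bik ranked 124 by the steepness of its fall, and their median was −1.42. Its standard error was the 31st smallest of the 180, against a median of 0.298.

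Of the 21 genes on the list of BCL2 relatives, Bik alone was in the MGH-CP1 table. None of 12 inhibitor of apoptosis genes and their antagonists, 20 death receptor pathway genes, 12 caspase and apoptosome genes, 18 NF-kappaB regulators or 21 p53 axis genes was listed there. The genes closest to Bik over the 6 libraries, by distance on log2 of the normalised count plus 1 centred on the vehicle mean, were Brinp1, Isg15 and Gm2614. Their distances were 0.184, 0.352 and 0.388 among 340 genes with a mean of at least 10, where the median distance was 3.39. Brinp1 stood at 12.7, 18.4 and 21.4 with MGH-CP1 against a vehicle mean of 40.7 ± 4.91 (SD, n = 3), the same order of treated libraries as Bik. Isg15, an interferon-induced ubiquitin-like protein gene, stood at 62.6, 73.5 and 80.8 against 175 ± 39.7 (SD, n = 3), again in that order. Gm2614 stood at 27.8, 26.8 and 40.4 against 79.3 ± 10.7 (SD, n = 3), with replicate 2 rather than replicate 1 the lowest treated library. The 3 genes were chosen by their likeness to Bik over these libraries, so their pattern is a description.

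Among macrophage markers 2 of 8 were in the MGH-CP1 table and moved with treatment in opposite directions. Cd68 stood at 54.8 ± 17.6 normalised counts against 12.2 ± 5.08 in vehicle, and Lyz2 at 92.8 ± 25.7 against 187 ± 16.9 (SD, n = 3). Their summed level was 3.81 to 4.20 FPKM with MGH-CP1 and 5.14 to 5.78 FPKM in vehicle. The endothelial marker Vwf stood at 0.0315 to 0.0687 FPKM with MGH-CP1 and 0.134 to 0.171 FPKM in vehicle, and no fibroblast, mural or epithelial marker was listed. The part of these markers in the fall of Bik was not tested.

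The dinaciclib comparison asks which transcripts change when these kinases are inhibited. It lists Bcl2 and Birc3, whose proteins are known for protecting cells, and the death receptor gene Fas. All 3 were lower with dinaciclib, to 28.2% of the vehicle mean for Bcl2 and 18.6% for Birc3, while Fas had no count in any treated library. Of the 248 tested genes 75.0% were called lower, 25.0% higher and 100% in either direction by edgeR, and the groups did not overlap in 99.6%. Here too the authors had picked the genes on the same libraries, so the calls are no independent evidence for the falls. With TMM factors over the listed genes, which assume that most of them are unchanged, 96 were lower and 70 higher, none of the 3 members was called, and the median log2 change of all genes moved up by 1.62. That 3 of 3 members were lower is near what the table holds as a whole.

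Bcl2 (ENSMUSG00000057329) lies on chromosome 1 from 106538178 to 106714274 on the minus strand and has 2 exons in its longest annotated form. In vehicle it stood at 454, 398 and 377 normalised counts, and with dinaciclib at 85.1, 183 and 78.6. Replicate 2 was the high library of the treated group, and it still lay below every vehicle library. The treated libraries rest on 23, 64 and 24 counts, and the exact 95% counting interval of replicate 2, 141 to 233, did not reach those of replicate 1 (53.9 to 128) and replicate 3 (50.4 to 117). The treated libraries thus differed among themselves by more than counting error. These intervals treat reads as independent and cover counting error only.

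For Bcl2 the log2 change was −1.80 (SE 0.312, 95% interval −2.52 to −1.08), with an edgeR quasi-likelihood p of 5.05e-04 after Benjamini-Hochberg adjustment. The median log2 change over all 248 tested genes was −1.83, and Bcl2 ranked 127 of the 186 lower genes by steepness, whose median was −2.39. The authors' deposited table gives −1.81 with an adjusted p of 5.57e-07. In FPKM the fall was from 4.33 ± 0.417 to 1.34 ± 0.668 (SD, n = 3). TMM factors put Bcl2 at −0.20 on the log2 scale (edgeR adjusted p = 0.533).

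The high value of Bcl2 in dinaciclib replicate 2 was shared by many listed genes. That library held the highest of the 3 treated values in 89 of the 186 lower genes (47.8%) and the lowest in 51 of the 62 higher genes (82.3%), so that it lay nearest to vehicle more often than the other 2. The 3 genes closest to Bcl2 over the 6 libraries were Foxo1, a forkhead transcription factor gene, Setd2, a histone methyltransferase gene, and Aff4, which encodes a scaffold of the super elongation complex. Their distances were 0.284, 0.344 and 0.377 among 243 genes, beside a median of 2.49. Foxo1 stood at 111, 243 and 98.3 in the treated libraries, Setd2 at 155, 402 and 167, and Aff4 at 325, 602 and 305. Replicate 2 was the highest for each, which follows from choosing them by likeness to Bcl2 over these libraries. Without dinaciclib replicate 2 the log2 change of Bcl2 was −2.32 and that of Setd2 −2.25 in place of −1.65.

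Birc3 (ENSMUSG00000032000) lies on chromosome 9 from 7848699 to 7873186 on the minus strand, with up to 9 exons in a transcript. It stood at 91.0, 74.3 and 78.1 normalised counts in vehicle and at 0, 25.7 and 19.7 with dinaciclib. The groups did not overlap, as in 75.0% of the tested genes, where all treated libraries lay below all vehicle libraries. The treated values rest on 0, 9 and 6 counts. The exact 95% counting intervals ran from 0 to 13.6 normalised counts in replicate 1, from 11.7 to 48.7 in replicate 2 and from 7.21 to 42.8 in replicate 3. These intervals overlap, so that the treated libraries of Birc3 were not ranked among themselves.

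Birc3 had a log2 change of −2.32 (SE 0.463, 95% interval −3.39 to −1.25) and, after Benjamini-Hochberg adjustment, an edgeR quasi-likelihood p of 0.00114. It ranked 99 of the 186 lower genes by steepness, close to their median of −2.39. The authors' deposited table gives −2.36 with an adjusted p of 1.44e-04. Without dinaciclib replicate 2 the log2 change was −2.95, and without replicate 1 it was −1.82. TMM factors put Birc3 at −0.71 (edgeR adjusted p = 0.266).

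The genes closest to Birc3 over the 6 libraries were Clp1, an RNA kinase gene, Chchd7, and Fance, a Fanconi anaemia gene. Their distances of 1.41, 1.91 and 2.05 were larger than those of the genes closest to Bcl2, among the same 243 genes and with a median of 4.94. All 3 had 0 counts in dinaciclib replicate 1: Clp1 stood at 0, 17.1 and 9.83 normalised counts, Chchd7 at 0, 42.8 and 13.1, and Fance at 0, 42.8 and 9.83. The likeness therefore rests on a library where each gene, like Birc3, had no read.

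Fas (ENSMUSG00000024778) lies on chromosome 19 from 34290659 to 34327770 on the plus strand in the deposited table, a few bases apart from GENCODE M21 at both ends, with up to 10 exons in a transcript. It was the scarcest member, with 26, 25 and 39 counts in the vehicle libraries, or 8.45, 7.55 and 10.1 normalised counts. Each of the 3 dinaciclib libraries held 0 counts. For each treated library alone the floor of 3 counts is 11.1, 8.56 and 9.83 normalised counts, which is within 1 vehicle SD of the vehicle mean of 8.68 ± 1.27 (n = 3) or above it, so that a single treated library could not show a fall. Over the 3 treated libraries together 8.04 counts would have been present at the vehicle level, beside 0 found.

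Fas was at least 2.68-fold lower with dinaciclib, computed against a floor of 3 counts over the group. The edgeR quasi-likelihood p was 0.00335 after Benjamini-Hochberg adjustment. Fas had passed the count filter through the vehicle libraries alone, and the authors had picked it on these same libraries. This p is therefore no independent evidence for the fall. The fitted fold change, which depends on the prior count, is not used here as a size. Fas was 1 of 7 tested genes with 0 dinaciclib counts. The authors' deposited table gives an adjusted p of 0.0165. With total counts as library sizes the bound was 2.44-fold. On the TMM scale 2.63 counts would have been present at the vehicle level, which is under the floor, so that no difference was detectable on that scale (edgeR adjusted p = 0.0624).

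**Figure D2:**
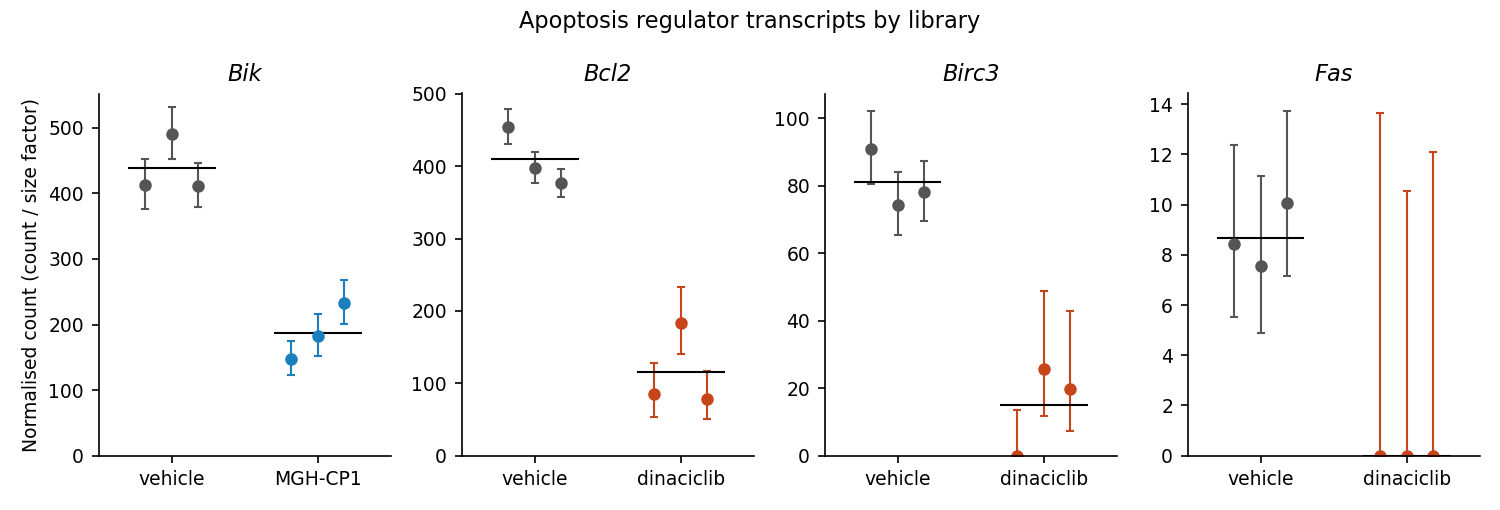
Normalised count of each member in each library (points, replicates 1 to 3 from left to right in each group) with exact 95% counting intervals; horizontal lines are group means and every axis starts at 0. The treated points of all 4 genes lie below all vehicle points, dinaciclib replicate 2 is the high treated library for Bcl2 at 183, and the intervals of the 3 Fas zeros reach the vehicle level.

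**Figure D3:**
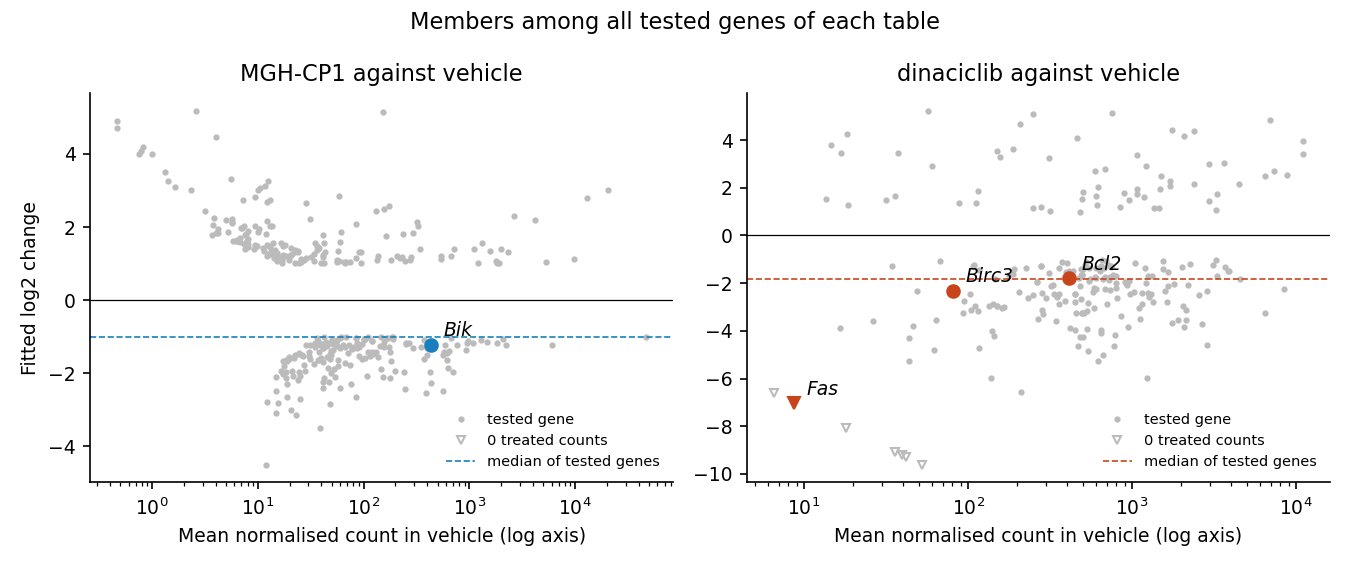
Fitted log2 change against mean vehicle level (log axis) for all tested genes, with the members in colour, genes without treated counts as triangles and the median of tested genes as a dashed line. The tables hold no gene near 0 because of how they were picked, Bcl2 lies on the dinaciclib median of −1.83, and the fitted position of Fas depends on the prior count.

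Other apoptosis genes gave few values. The 4 lists of BCL2 relatives, inhibitor of apoptosis genes, death receptor genes and caspases hold 65 genes, of which 4 were in the dinaciclib table and 60 in neither table. The listed 4 were the 3 members and Daxx, which encodes a FAS-associated protein that also acts as a histone chaperone. Daxx stood at 40.7, 28.5 and 29.5 normalised counts with dinaciclib against 282 ± 7.57 in vehicle (SD, n = 3), and its log2 change was −3.12 (SE 0.235, edgeR adjusted p = 2.76e-06). Of these 4 genes 4 were called lower and 0 higher, in a table with 75.0% called lower, and with TMM factors only Daxx was called.

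Birc3 is a known transcriptional target of NF-kappaB and BIRC3 acts on that pathway, so its regulators were read from a list of 18 genes. With dinaciclib 5 were listed, and 5 were called lower and 0 higher, where 75.0% of all 248 tested genes were called lower. With TMM factors 3 of the 5 were called lower, as were 96 of the 248, and Nfkb2 changed sign. Bcl10 and Malt1 encode partners in the complex that links antigen and other receptors to NF-kappaB, and MALT1 is known from fusions with human BIRC3 in lymphoma. Bcl10 stood at 25.9, 5.71 and 26.2 normalised counts with dinaciclib against 467 ± 11.7 in vehicle, and Malt1 at 33.3, 8.56 and 19.7 against 162 ± 11.3 (SD, n = 3). Replicate 2 had the lowest treated value for both, on only 2 and 3 counts. Its counting intervals overlapped those of replicates 1 and 3, so the treated libraries of these genes were not ranked either.

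The NF-kappaB subunit genes Rel and Nfkb2 had smaller differences. Rel stood at 70.3, 37.1 and 19.7 normalised counts against 146 ± 6.88, and Nfkb2 at 96.2, 183 and 141 against 361 ± 2.14 (SD, n = 3). Their log2 changes were −1.83 with SE 0.298 and −1.35 with SE 0.238, and with TMM factors −0.22 and 0.26, neither of them called. Bcl3, which encodes an atypical IkappaB protein, had 0 counts in the 3 dinaciclib libraries against 428 in vehicle. On the authors' size factors it was at least 12.9-fold lower, against the same floor of 3 counts as for Fas. With TMM factors Bcl3 was still called lower (edgeR adjusted p = 0.00501), but its bound was not computed on that scale. The median log2 change of the 5, which is that of Malt1, was −3.05, beside −1.83 over all tested genes and −2.39 over the 186 lower genes. With TMM factors the median of the 5 was −1.44 and that of all tested genes −0.22.

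Fas is also a known p53 target, and the 2 other listed genes of the p53 axis were higher with dinaciclib on this relative scale. Mdm2, the ubiquitin ligase gene that limits p53, stood at 1084, 1812 and 1333 normalised counts against 493 ± 8.48, and the repair gene Ddb2 at 203, 160 and 246 against 14.5 ± 2.84 (SD, n = 3). Of 21 genes on that list 3 were in the table, with 2 called higher and Fas lower by the same edgeR test, where 25.0% of all tested genes were called higher and 75.0% lower. With TMM factors, which moved the median log2 change up by 1.62, Mdm2 stood at 3.13 and Ddb2 at 5.40. Such a shift could not reverse a rise, so it is no check on their direction. The endothelial markers Kdr, Fli1 and Gata2 were lower together, at a summed 25.2 to 27.8 FPKM with dinaciclib and 129 to 133 FPKM in vehicle; their part in the falls of the members was not tested.

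**Figure D4:**
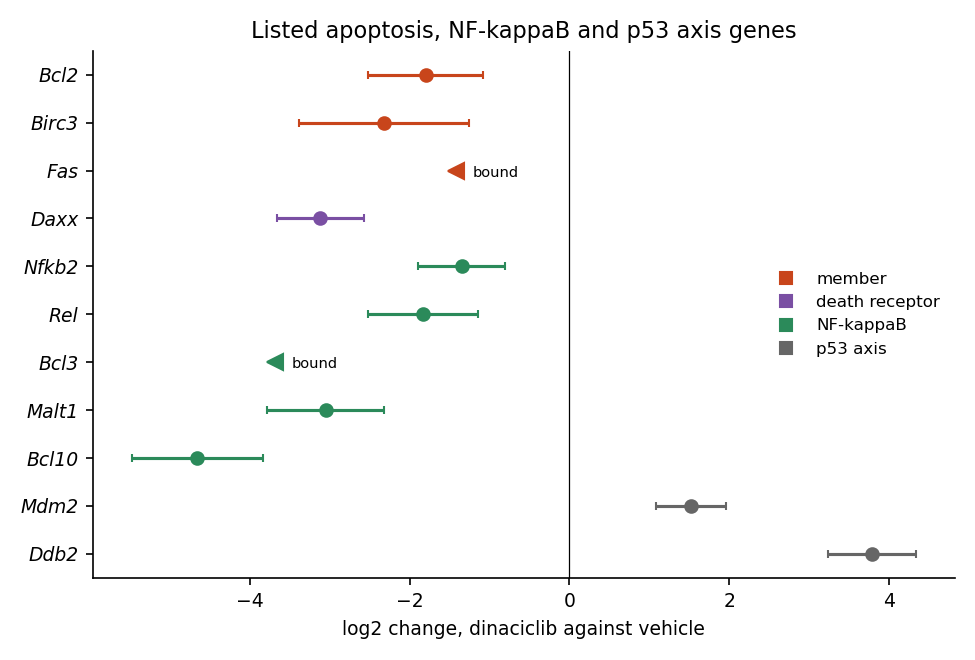
Log2 change with dinaciclib (points, with 95% intervals) of the 3 members and of each other listed gene of the apoptosis, NF-kappaB and p53 lists; left-pointing triangles are bounds for Fas and Bcl3, which had 0 treated counts. The members and NF-kappaB genes lie below 0, while Mdm2 at 1.52 and Ddb2 at 3.78 lie above it.

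The 3′ untranslated regions of the members differed in length. In each, the pentamer ATTTA was denser than the median of the lower genes of the same table, for Fas only slightly. In the longest annotated form the 3′ untranslated region held 5086 bases for Bcl2, 1525 for Birc3, 1218 for Fas and 409 for Bik. The pentamer ATTTA, the core of AU-rich elements known from short-lived messages, occurred 15 times in Bcl2, 7 times in Birc3, 2 times in Fas and 1 time in Bik. Per kilobase Birc3 held 4.59, Bcl2 2.95 and Fas 1.64, beside a median of 1.48 over the 186 lower genes and 0.942 over the 64 higher genes with such a region in the dinaciclib table. Birc3 ranked 8 and Bcl2 35 of the 186 in this density, and Fas 82. The longer form TATTTAT occurred in all 3, as in 37.1% of the lower genes and 28.1% of the higher ones. Bik held 2.44 per kilobase, beside 0.558 over 108 lower genes of its table.

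The genes also differ in size. Bcl2 spans 176097 bases and ranked 14 of the 186 lower genes by span, Fas spans 37112 and Birc3 24488, and the median was 47781 bases for lower and 21474 for higher genes. Bik spans 17773 bases. Per the labels' protocols the libraries carry no strand mark, and an antisense gene, D630008O14Rik, overlaps 1 exon of Bcl2, so that their reads cannot be told apart there. For Birc3 7.38% of its 50-base transcript words also occur in another annotated gene, among them its paralog Birc2. This is a share of sequence words and not of reads, and its effect on the Birc3 count was not measured. The share was 0.0989% for Bcl2 and 0% for Bik and Fas.

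**Figure D5:**
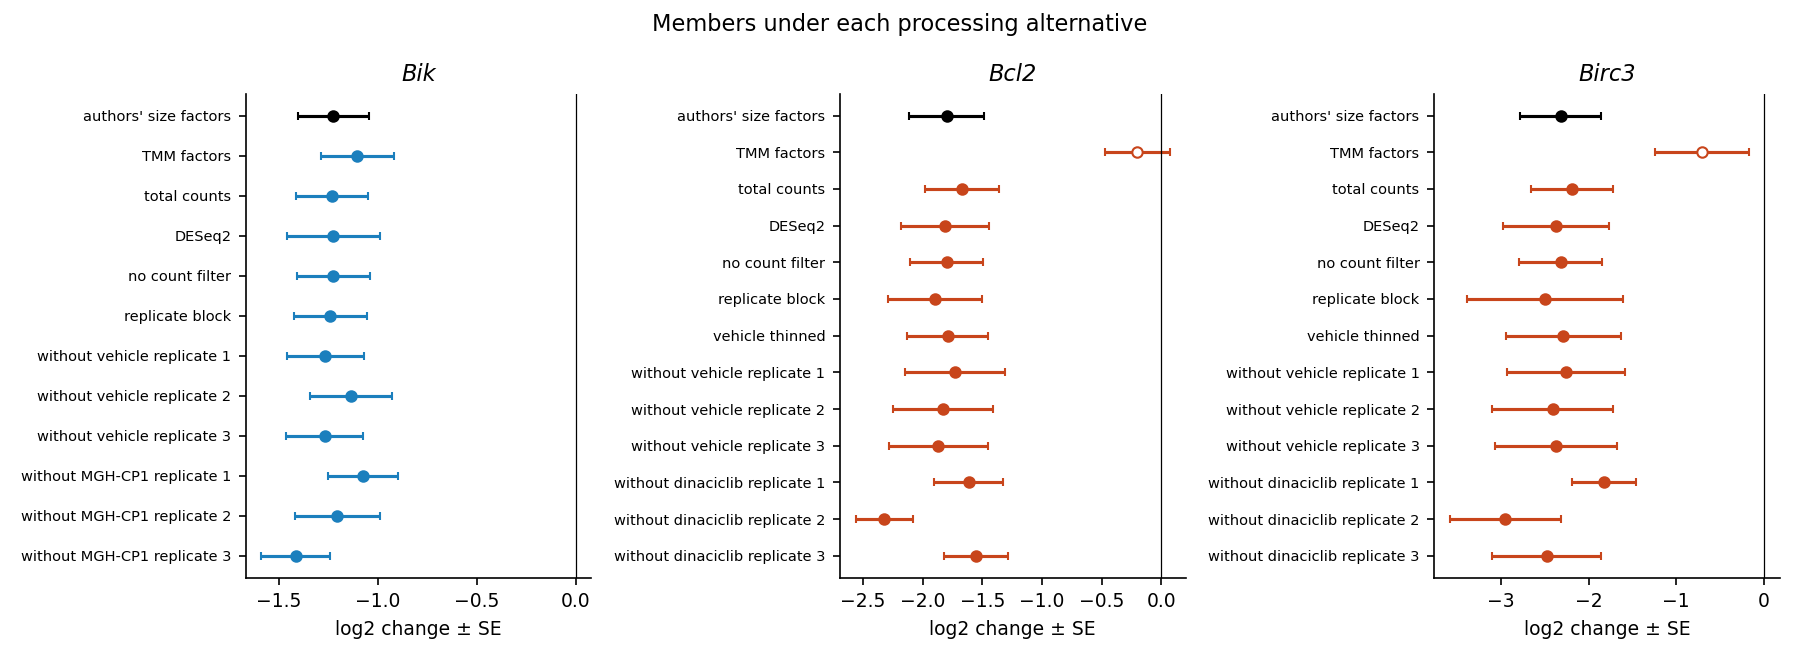
Log2 change ± SE of Bik, Bcl2 and Birc3 under each processing alternative, with the reported fit in black and open points where the adjusted p is above 0.05. Bik lies between −1.42 and −1.08 in every setting drawn, and Bcl2 and Birc3 lose their calls with TMM factors alone.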

How the data were processed

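RNA was measured in 9 libraries, 3 per group. Messenger RNA was captured on poly-T beads and copied with random primers, per the labels' protocols. The submitters' processing notes name HISAT2 2.0.5, fastp, DESeq2 1.20.0 and featureCounts 1.5.0-p3. The genome build is not given in the sources used here. GRCm38 was assumed from the gene models: every identifier is in GENCODE M21, and start and end are equal for 98.5% of MGH-CP1 and 96.4% of dinaciclib genes, with Fas among those that differ.

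Per the file headers, the deposited counts are raw reads per gene. The authors' normalised signal equals each count over a library's size factor. The authors also deposited FPKM, log2 fold changes, raw and adjusted p-values, and gene lengths. Both tables stop at an adjusted p of 0.05 and at a log2 fold change of 1 in either direction, as read from their values. Size factors and total counts were recovered by division, and 100% of the values above 0 gave the deposited count within 0.01. The 2 tables were normalised separately, so normalised counts were compared within a table and FPKM, which rests on each library's total, across them.

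Each table was fitted whole with edgeR 4.0.16 in R 4.3.3 (quasi-likelihood test, two-sided, no covariate), scaled by the authors' size factors, after filterByExpr (minimum count 10). Benjamini-Hochberg adjustment ran over all tested genes of a table, and a call is an adjusted p under 0.05. Because the tables are picked, that p gives no genome-wide error rate. The standard error is the log2 change divided by the root of the test's F. Counting intervals are exact Poisson intervals at 95%, and the floor is 3 counts. Alternatives were TMM factors, total counts, DESeq2 1.42.0 with the authors' size factors, no filter, a replicate block, vehicle thinned to dinaciclib depth, and the omission of each replicate. Replicates of a group all differed by more than sampling noise (chi-square at least 5.28 times its degrees of freedom).

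Genes named are the 4 members, every listed gene of the lists of apoptosis, NF-kappaB, p53 and cell type markers, and the 3 genes nearest each member with treated counts. Members and lists were chosen with earlier results of these data known.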

Additional observations from a re-analysis of the deposited data

How the results depend on the processing

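The log2 change of Bik kept its direction and call in all 11 alternatives, from −1.42 to −1.08. With TMM factors over the listed genes Bcl2 (−0.20), Birc3 (−0.71) and Fas (a fitted −6.96) lost their calls, Nfkb2 changed sign (0.26), and Rel, Foxo1, Setd2 and Aff4 lost their calls; these factors take most of a picked table as unchanged and so shift it by construction. In the 11 other alternatives Bcl2 and Birc3 kept theirs, as did Fas in the 7 others that tested it. The authors' size factors and total counts are relative scales too. The listed genes made up 2.53 to 2.57% of vehicle counts and 9.61 to 12.3% of dinaciclib counts. Whether most transcripts were unchanged with dinaciclib was not tested. Leaving out each replicate in turn gave −2.32 to −1.56 for Bcl2, −2.95 to −1.82 for Birc3, and −1.42 to −1.08 for Bik. For Fas only the 3 omissions of a dinaciclib replicate gave a fit (−7.27 to −7.26). Fitted values of Fas depend on the tool and its settings, with −7.04 in edgeR and −3.86 in DESeq2 from the same counts, and carry no size. Fas fell under the count filter without any 1 vehicle replicate and with vehicle thinned to the dinaciclib depth. It was not tested in those settings, so they cannot show how far its call rests on the deep vehicle libraries. With no filter Fas was called (edgeR adjusted p = 0.0137). The number of genes called stayed within 1.5 times, at 355 to 471 for MGH-CP1 and 166 to 251 for dinaciclib. Same-numbered replicates did not deviate together (correlations −0.106 to 0.0344 for MGH-CP1 and −0.135 to 0.0195 for dinaciclib). With 3 replicates per group this cannot exclude pairing, so whether same-numbered samples were paired is not known. With the replicate block the log2 changes were −1.24 for Bik, −1.90 for Bcl2 and −2.50 for Birc3, and 355 and 240 genes were called. Dinaciclib depth limits Birc3 and Fas most, at 15 and 0 counts over 3 libraries. Without dinaciclib replicate 2 the log2 changes of Clp1, Chchd7, Fance and Fli1 were −4.15, −4.56, −4.83 and −3.70.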
